A study of Homo sapiens with 4 samples.

Results

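The prostate cancer long noncoding RNAs (lncRNAs) described here are 10 named genes, PCGEM1, PCA3, PCAT1, PCAT4, PCAT6, PCAT14, DRAIC, ARLNC1, MALAT1 and NEAT1, taken by symbol from the deposited LNCaP gene table. The table held 7 of them among 17902 genes: PCGEM1, PCAT1, PCAT6, DRAIC, ARLNC1, MALAT1 and NEAT1. All 7 passed the filter on low counts and were tested, and PCA3, PCAT4 and PCAT14 were not analysed here.

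RNA was measured in LNCaP, a human prostate carcinoma cell line, in 2 libraries of cells overexpressing the ETS factor ETV5 (ETV5OE) and 2 libraries of cells labelled WT (Control). The labels give no time, vector or clone for the overexpression, and do not say what separates the libraries of a group. The names of both ETV5OE libraries share a stem. The names of ETV5OE replicate 2 and Control replicate 1 end in R, and no label explains this ending. The p-values below therefore rest on library-to-library differences that may be technical. ETV5 stood at 23.9 and 21.2 CPM in the ETV5OE libraries, against 0.728 and 1.31 CPM in the Control libraries (CPM, counts scaled to the library's total count), a log2 fold change of 4.54 (SE 0.32, edgeR adjusted p = 0.00151). Of 14 luminal prostate markers 13 were in the table, and they summed to 7067 and 7516 CPM in the ETV5OE libraries, against 9547 and 10233 CPM in the Control libraries. Of 20 stromal, endothelial and immune markers 8 were in the table; they summed to 124 and 35.1 CPM in ETV5OE replicates 1 and 2, against 35.5 and 28.8 CPM in Control replicates 1 and 2, so ETV5OE replicate 1 stood apart. The excess lay mostly in collagen genes. COL1A2 stood at 41.3 and 0.0812 CPM in ETV5OE replicates 1 and 2, against 0.331 and 1.74 CPM in Control. COL1A1 stood at 27.0 and 9.78 CPM in ETV5OE, against 9.66 and 9.16 CPM in Control. The stromal PDGFRB was also highest in ETV5OE replicate 1, at 2.10 and 0.609 CPM in ETV5OE, against 0.529 and 0.485 CPM in Control. The stromal ACTA2 (1.92 CPM), the endothelial VWF (7.96 CPM) and the macrophage marker CD68 (9.08 CPM) were not highest in that library. DCN, LUM, PECAM1 and PTPRC were among the 12 not listed. In bulk RNA, fewer cells of a type and less RNA per cell cannot be told apart.

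Long noncoding RNAs act as RNA rather than through a protein, and many are made in few tissues. In prostate epithelium a group of them is controlled by the androgen receptor, the hormone-activated transcription factor that drives luminal differentiation, and several were found because their level differs between prostate tumours and normal gland. MALAT1 and NEAT1 differ from these in being abundant in the nuclei of many cell types, MALAT1 in the splicing-factor bodies called nuclear speckles and NEAT1 as the architectural RNA of paraspeckles.

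None of the 7 lncRNAs passed the edgeR threshold (adjusted p under 0.05), where 0.401% of 16194 tested genes did, 41 higher and 24 lower in ETV5OE. Among 1939 tested genes of the lncRNA class, 0.0516% were called. At an unadjusted p under 0.05, 2 members were lower (PCGEM1 and PCAT1) and 0 higher, where 7.14% of all tested genes reached that level, 3.63% higher and 3.51% lower; PCGEM1 met the filter on low counts only through Control, where it is high, so its p depends in part on that filter. DESeq2 and limma-voom also called 0 members, where DESeq2 called 1.38% of all tested genes (0.642% lower) and limma-voom 0.408%. The count of called members stayed at 0 without Control replicates 1 and 2 and without ETV5OE replicates 1 and 2, where 1.57%, 0.972%, 0.0241% and 0.0908% of all tested genes were called. PCGEM1, PCAT1 and PCAT6 were lower in both ETV5OE libraries than in either Control library, and 22.9% of all tested genes showed that pattern; DRAIC, ARLNC1, MALAT1 and NEAT1 overlapped between groups. With 2 libraries a group, several of the intervals below still span changes larger than 2-fold.

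**Figure D1:**
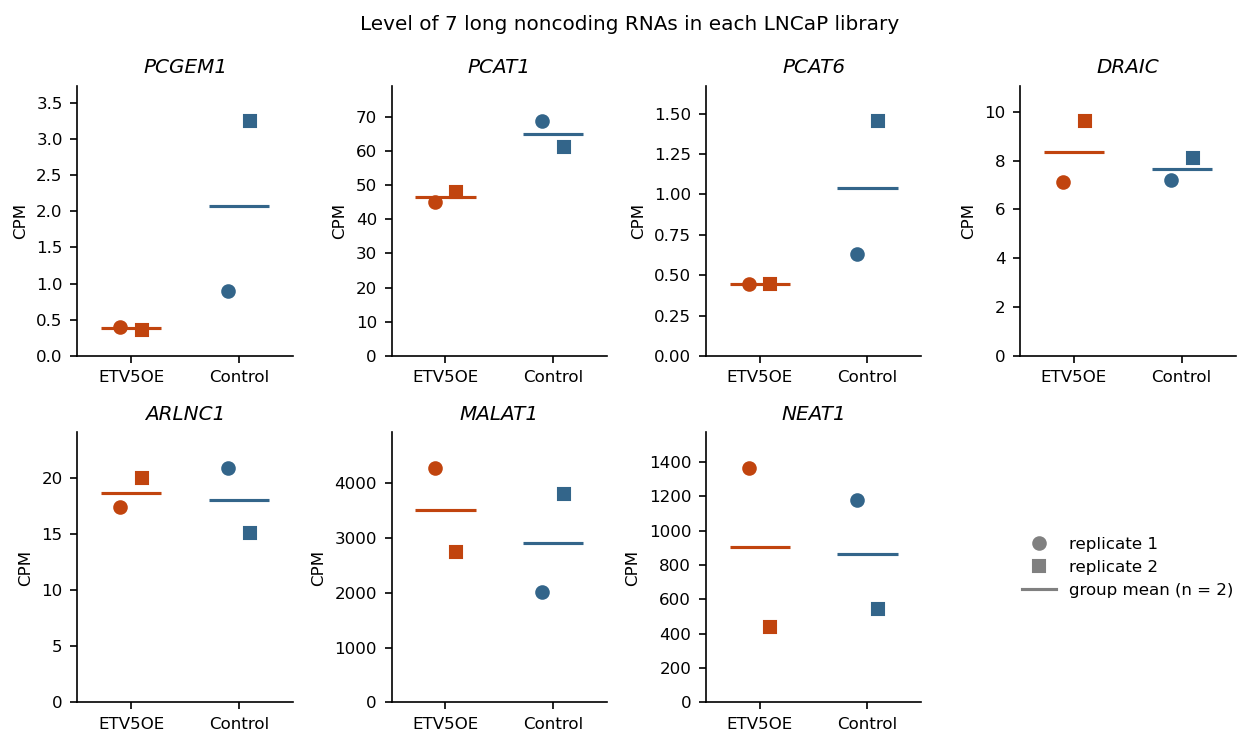
Level in CPM (linear axis from 0, one scale per gene) of the 7 lncRNAs in each library, with ETV5OE on the left and Control on the right; circles are replicate 1, squares replicate 2 and lines the group means (n = 2). PCGEM1, PCAT1 and PCAT6 show no overlap between groups, while NEAT1 spans 439 to 1367 CPM within ETV5OE alone.

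Per length, the 7 transcripts covered a wide range. Averaged over the 4 libraries, MALAT1 stood at 366 FPKM (counts scaled by depth and by transcript length, as deposited), the rank 2 level among 2247 listed lncRNAs, and NEAT1 at 68.1 FPKM, rank 10. PCAT1 followed at 26.6 FPKM, rank 26, above 86.5% of all listed genes. ARLNC1 was at 7.68 FPKM, above 60.7% of listed genes, and DRAIC at 4.46 FPKM, above 48.6%. PCAT6 and PCGEM1 were the lowest at 0.917 and 0.688 FPKM, and their libraries overlapped, so their order is not resolved; the libraries of the other neighbours in this order did not overlap.

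PCGEM1 is a prostate-specific, androgen-regulated lncRNA associated with survival of prostate cancer cells (gene ID 64002; GRCh38 chr2:192749845-192776899, plus strand). It had 9 and 9 counts in ETV5OE replicates 1 and 2, against 27 and 67 counts in Control replicates 1 and 2. This is 0.402 and 0.365 CPM in ETV5OE, against 0.893 and 3.25 CPM in Control, with exact 95% Poisson intervals, which cover counting error only, of 0.184 to 0.764 and 0.167 to 0.693 CPM in ETV5OE and of 0.589 to 1.30 and 2.52 to 4.12 CPM in Control. Both ETV5OE libraries were low and close together, while the Control libraries differed from each other 3.63-fold, a spread that only 2.2% of tested genes reached or exceeded in the Control pair. Group means were 0.384 ± 0.0262 CPM in ETV5OE and 2.07 ± 1.66 CPM in Control (SD, n = 2). The log2 fold change was -2.35 (SE 0.74, 95% interval -4.05 to -0.66), with an unadjusted p of 0.0126 and an edgeR adjusted p of 0.449. PCGEM1 met the filter of about 0.425 CPM in 2 libraries only through Control. Without Control replicate 2 its log2 fold change was -1.17 (edgeR adjusted p = 0.837), and without Control replicate 1 it was -3.02 (adjusted p = 0.063). The authors' deposited table gives PCGEM1 a signed fold of -1.73 with an unadjusted p of 0.330, from group means of about log2(FPKM + 1), a scale that understates the change of low genes.

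Among all tested genes, GAS2, EBF3 and RPL7P16 had the profiles nearest to that of PCGEM1 over the 4 libraries, with root mean square distances of 0.22, 0.22 and 0.25 between log2 CPM values centred on each gene's own mean. GAS2 stood at 0.179 and 0.162 CPM in ETV5OE, against 0.562 and 1.36 CPM in Control. EBF3 stood at 0.224 and 0.325 CPM in ETV5OE, against 0.595 and 1.99 CPM in Control. These genes were picked for their likeness to PCGEM1 and, like it, met the filter of about 0.425 CPM only through Control, so their values are a description.

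ARLNC1 is induced by the androgen receptor and is known to stabilize the receptor's transcript (gene ID 100996425; GRCh38 chr16:80828735-80892596, minus strand). It had 17.4 and 20.0 CPM in ETV5OE, against 20.9 and 15.1 CPM in Control. The highest and the lowest of these values were both Control libraries, and the ETV5OE values lay between them. The log2 fold change was 0.10 (SE 0.22, 95% interval -0.42 to 0.61, edgeR adjusted p = 0.967). Its sign was not stable: without Control replicate 2 or ETV5OE replicate 2 it was -0.12 or -0.04.

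DRAIC is named for its lower level in cancer and its inhibition of cell invasion, and the androgen receptor is known to repress it (gene ID 145837; GRCh38 chr15:69561720-69571440, plus strand). It had 7.11 and 9.62 CPM in ETV5OE, against 7.21 and 8.09 CPM in Control. Both Control values lay inside the ETV5OE range. The log2 fold change was 0.18 (SE 0.27, 95% interval -0.45 to 0.81, edgeR adjusted p = 0.951), and without ETV5OE replicate 2 it was -0.09.

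PCAT1 promotes proliferation of prostate cancer cells and is transcribed from the gene-poor region beside MYC on chromosome 8 (gene ID 100750225; GRCh38 chr8:127013154-127021014, plus strand). It had 1006 and 1179 counts in ETV5OE, against 2075 and 1261 counts in Control. Scaled to depth this was 45.0 and 47.8 CPM in ETV5OE, against 68.6 and 61.1 CPM in Control. The pairs were each close together, within 1.06-fold in ETV5OE and 1.12-fold in Control, and did not overlap. Group means were 46.4 ± 2.03 CPM in ETV5OE and 64.9 ± 5.34 CPM in Control (SD, n = 2), a log2 fold change of -0.44 (SE 0.15, 95% interval -0.78 to -0.10), with an unadjusted p of 0.0186 and an edgeR adjusted p of 0.522. Its log2 fold change stayed negative in all 18 alternative settings, from -0.52 to -0.35, and passed the adjusted threshold in none. As the groups did not overlap, this constant sign is no sign of stability. The overlapping lncRNA LOC105375751, whose reads may be shared with PCAT1, had 1.43 and 2.07 CPM in ETV5OE, against 1.75 and 1.41 CPM in Control.

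PCAT6 is a short lncRNA reported as raised in prostate and lung tumours, transcribed away from the histone demethylase gene KDM5B (gene ID 100506696; GRCh38 chr1:202810954-202811912, plus strand; 2533 bases from KDM5B, which lies on the minus strand). It had 10 and 11 counts in ETV5OE, against 19 and 30 counts in Control. This was 0.447 and 0.446 CPM in ETV5OE, against 0.629 and 1.45 CPM in Control. The groups did not overlap, but the Poisson interval of Control replicate 1, 0.378 to 0.982 CPM, contains both ETV5OE values. The log2 fold change was -1.15 (SE 0.65, 95% interval -2.65 to 0.36, edgeR adjusted p = 0.808); without Control replicate 2 it was -0.45, and without Control replicate 1 it was -1.65. KDM5B had 179 and 142 CPM in ETV5OE, against 145 and 190 CPM in Control, and its groups overlapped (log2 fold change -0.01, edgeR adjusted p = 0.993). Its lower values were those of the libraries whose names end in R, ETV5OE replicate 2 and Control replicate 1. The share of all tested genes with such a split was not counted.

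PCGEM1 and PCAT6 were the members with the lowest ETV5OE to Control ratios, so the sequences around their starts are shown, from RefSeq on GRCh38.p14, each running from 250 bases before to 50 bases after the start. The MALAT1 window of the same length, from its more downstream start, is shown because among the member windows searched it alone held the ETS core letters. Capitals mark CGGAAG, the core letters of many ETS sites, and AGAACA, the hexamer of androgen receptor elements, on either strand; on the minus strand AGAACA reads TGTTCT here.
PCGEM1, chr2:192749595-192749894, plus strand: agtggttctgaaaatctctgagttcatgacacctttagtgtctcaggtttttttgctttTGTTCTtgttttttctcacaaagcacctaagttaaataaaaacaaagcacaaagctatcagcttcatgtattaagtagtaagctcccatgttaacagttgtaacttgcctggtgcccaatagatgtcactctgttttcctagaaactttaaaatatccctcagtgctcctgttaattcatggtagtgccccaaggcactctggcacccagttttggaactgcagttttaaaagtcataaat
PCAT6, chr1:202810704-202811003, plus strand: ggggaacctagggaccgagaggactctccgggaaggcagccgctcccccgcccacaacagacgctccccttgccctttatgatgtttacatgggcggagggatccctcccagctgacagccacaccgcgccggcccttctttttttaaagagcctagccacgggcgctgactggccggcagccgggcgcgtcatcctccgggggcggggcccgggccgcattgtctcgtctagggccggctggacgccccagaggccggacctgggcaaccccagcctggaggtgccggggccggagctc
MALAT1, chr11:65498795-65499094, plus strand: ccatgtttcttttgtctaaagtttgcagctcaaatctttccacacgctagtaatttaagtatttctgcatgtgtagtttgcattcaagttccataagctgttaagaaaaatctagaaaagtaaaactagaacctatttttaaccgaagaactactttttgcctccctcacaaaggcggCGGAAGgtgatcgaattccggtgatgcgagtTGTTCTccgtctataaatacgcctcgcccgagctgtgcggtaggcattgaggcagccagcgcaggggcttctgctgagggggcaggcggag

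The PCGEM1 window held AGAACA once, on the minus strand from base 60, and no CGGAAG. The PCAT6 window held neither. The MALAT1 window held CGGAAG from base 179 and the minus-strand hexamer from base 210. Across all 35116 RefSeq windows of 300 bases, 19.5% held CGGAAG and 14.8% held AGAACA on either strand, while the shorter GGAA was in 95.5%. The full palindrome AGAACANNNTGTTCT, which contains the hexamer, was in 1 window, of no member. The PCGEM1 window was 38% G and C and the PCAT6 window 69.7%, against a median of 58.7% over all windows. Windows were found for 5 members, the others being those of DRAIC and PCA3, and a match is a string of letters, not a bound site.

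MALAT1, the nuclear speckle lncRNA (gene ID 378938; GRCh38 chr11:65497738-65506516, plus strand), had 95651 and 67742 counts in ETV5OE replicates 1 and 2, against 60650 and 78270 counts in Control replicates 1 and 2. It made up 0.428% and 0.275% of all counts in ETV5OE, against 0.201% and 0.379% in Control, which is 4276 and 2749 CPM against 2006 and 3792 CPM. The highest library was ETV5OE replicate 1 and the lowest Control replicate 1, and the remaining pair was in the opposite order, so the groups overlapped. The libraries whose names end in R, ETV5OE replicate 2 and Control replicate 1, held the lower MALAT1 values, 2749 and 2006 CPM. ARLNC1 was higher in those libraries, and PCGEM1, PCAT1, PCAT6, NEAT1 and DRAIC did not split by this ending. The share of all tested genes that split by it was not counted, so these splits are only a description. The part of this ending in the MALAT1 values was not tested. Replicates differed 1.56-fold within ETV5OE and 1.89-fold within Control. Group means were 3513 ± 1080 CPM in ETV5OE and 2899 ± 1263 CPM in Control (SD, n = 2), with a log2 fold change of 0.32 (SE 0.38, 95% interval -0.68 to 1.32, edgeR adjusted p = 0.937). Without Control replicate 1 or ETV5OE replicate 1 it was -0.07 or -0.02, and without Control replicate 2 it was 0.84 (adjusted p = 0.403).

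TALAM1, the antisense transcript annotated across the MALAT1 gene, had 54.5 and 38.4 CPM in ETV5OE, against 21.1 and 37.2 CPM in Control. Its counts were 1.27% and 1.40% of those of MALAT1 in ETV5OE, and 1.05% and 0.981% in Control. No source used here gives the strand setting of the counting, so reads of TALAM1 and MALAT1 cannot be told apart. MASCRNA, the small tRNA-like RNA cut from the MALAT1 3' end, was listed with 1 count in every library and lies within the MALAT1 gene.

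NEAT1 (gene ID 283131; GRCh38 chr11:65422798-65445540, plus strand) lies 52198 bases before MALAT1 and is made as a short polyadenylated transcript and as a long one that shares its start; the long one is the form that builds paraspeckles. NEAT1 had 30579 and 10822 counts in ETV5OE replicates 1 and 2, against 35696 and 11204 counts in Control replicates 1 and 2. Scaled to depth this was 1367 and 439 CPM in ETV5OE, against 1181 and 543 CPM in Control. In each group replicate 1 was high and replicate 2 low, 3.11-fold in ETV5OE and 2.18-fold in Control, and a replicate ratio as large was seen in 3.04% of tested genes within ETV5OE and 8.08% within Control. Group means were 903 ± 656 CPM in ETV5OE and 862 ± 451 CPM in Control (SD, n = 2), and the log2 fold change of 0.10 had an SE of 0.79 and a 95% interval of -2.45 to 2.65 (edgeR adjusted p = 0.993). The interval spans falls and rises of over 5-fold, so these libraries do not bound a change of NEAT1. ETV5OE replicate 1, the highest library in CPM for NEAT1 and MALAT1, was also the one with high collagen mRNA, COL1A2 being at 41.3 CPM there. It had the lowest sum of 13 mitochondrially encoded mRNAs as well, which stood at 1262 and 2009 CPM in ETV5OE, against 2189 and 2319 CPM in Control. The part of these differences in the MALAT1 and NEAT1 values was not tested.

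The ends of the long NEAT1 transcript and of MALAT1 are unusual: both are cut by RNase P at a tRNA-like structure rather than polyadenylated, and are protected by U-rich stretches folding onto a genomically encoded A-rich tract. The last 100 bases before the cut are shown from GENCODE 29 transcripts on GRCh38, written as DNA, with runs of at least 4 T or at least 4 A in capitals, followed by mascRNA, the 58 bases that RefSeq places directly after the cut in MALAT1.
MALAT1, chr11:65506017-65506116, plus strand: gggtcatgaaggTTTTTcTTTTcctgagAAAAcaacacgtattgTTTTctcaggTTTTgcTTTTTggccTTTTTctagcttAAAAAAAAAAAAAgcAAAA
NEAT1, chr11:65445441-65445540, plus strand: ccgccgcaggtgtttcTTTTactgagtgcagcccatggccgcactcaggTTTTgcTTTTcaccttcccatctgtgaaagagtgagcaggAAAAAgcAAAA
mascRNA, chr11:65506117-65506174, plus strand: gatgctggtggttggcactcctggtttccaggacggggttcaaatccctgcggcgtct

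The counts and FPKM of NEAT1 did not rank the libraries alike. In FPKM NEAT1 stood at 57.8 and 66.7 in ETV5OE replicates 1 and 2, against 91.7 and 56.1 in Control replicates 1 and 2. Within ETV5OE, replicate 1 therefore had the higher CPM but the lower FPKM. FPKM divides counts by transcript length, so the ratio of CPM to FPKM gives the length that the authors' quantification used. It was compared with annotated length over 1457 genes with 1 listed transcript of over 1000 bases and at least 100 counts in every library. The ratio was 1.05 times the annotated length at the median in each library, with 5th and 95th percentiles near 0.85 and 1.42. Values below are divided by that median, also for PCGEM1 and PCAT6, whose counts were below 100 in every library.

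The length used for NEAT1 was 22613 and 6298 bases in ETV5OE replicates 1 and 2, against 12289 and 9238 bases in Control replicates 1 and 2. Annotated lengths are 3524 bases for the short and 22743 bases for the long transcript. Read as a mixture of those transcripts, the long form took 99.3% and 14.4% of NEAT1 FPKM in ETV5OE, against 45.6% and 29.7% in Control. The long form would then be at 57.5 and 9.62 FPKM in ETV5OE, against 41.8 and 16.7 FPKM in Control. The short form would be at 0.391 and 57.1 FPKM in ETV5OE, against 49.9 and 39.4 FPKM in Control. The ETV5OE libraries thus sat at opposite extremes, with the Control libraries between them, and no group difference could be read from this split. Among 6731 genes with at least 500 counts in every library, NEAT1 had the rank 2 range of this length, 3.59-fold, where the median gene had 1.02-fold. The other members had ranges of at most 1.16-fold, MALAT1 lying between 8345 and 8454 bases. The share is an assignment by the authors' software, not a measurement of each transcript, and its cause was not tested. It leaves out the spread between genes in the ratio of CPM to FPKM, given above, so the shares and the FPKM of each form are approximate.

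**Figure D2:**
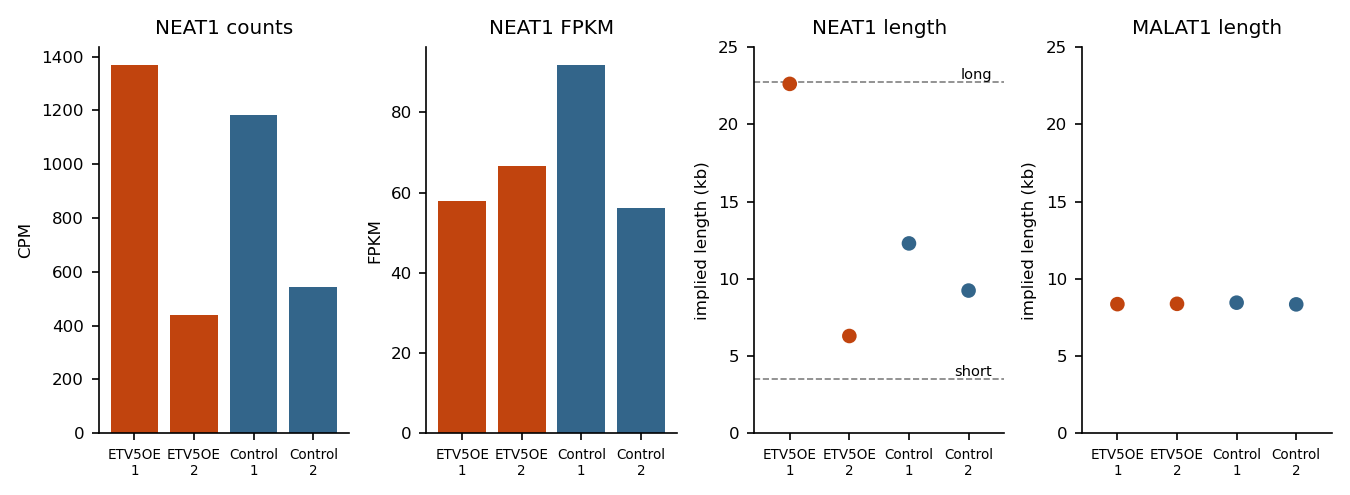
NEAT1 in each library as CPM and as FPKM (bars from 0), and the transcript length implied by their ratio in kilobases for NEAT1 and, beside it, MALAT1 (points), with ETV5OE libraries left and Control libraries right; dashed lines mark the annotated short (3524 bases) and long (22743 bases) NEAT1 transcripts. NEAT1 reaches 22613 bases in ETV5OE replicate 1 and 6298 bases in ETV5OE replicate 2, while MALAT1 stays between 8345 and 8454 bases.

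With each of the 4 libraries left out, DRAIC, ARLNC1, MALAT1 and NEAT1 each took both signs. The sign of PCGEM1, PCAT1 and PCAT6 is fixed by groups that do not overlap, so that it held is no sign of stability; the sizes of PCGEM1 and PCAT6 moved with the Control library left out.

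**Figure D3:**
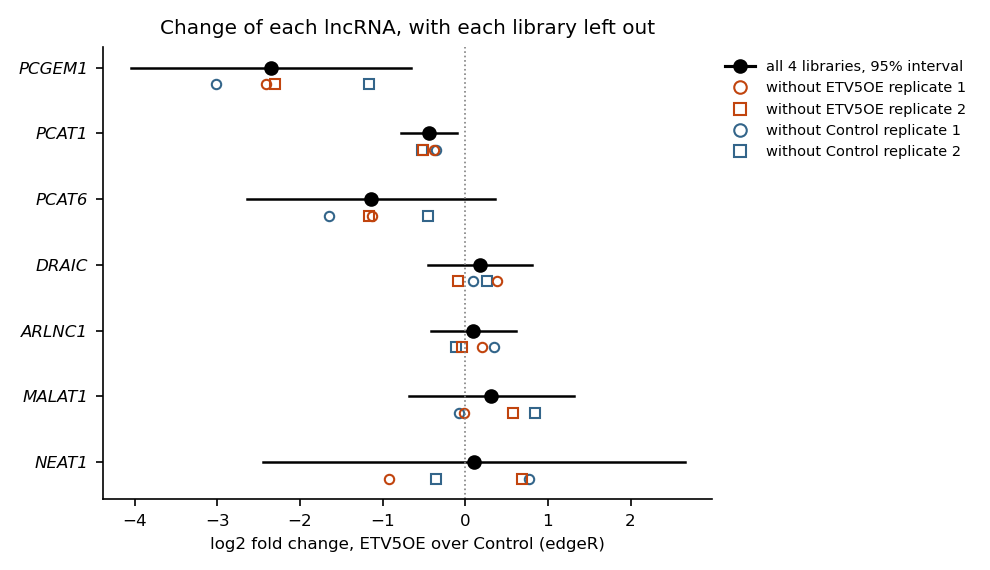
Log2 fold change of ETV5OE over Control (edgeR) for the 7 lncRNAs; black points and lines are the estimate and 95% interval from all 4 libraries, and open symbols the estimates with ETV5OE (orange) or Control (blue) replicates 1 and 2 left out in turn. PCGEM1 lies at -2.35 with a range of -3.02 to -1.17, and NEAT1 at 0.10 with a range of -0.92 to 0.77.

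Levels of genes beside or around the members are given next, none of which passed the adjusted threshold. FRMD8, which ends 9273 bases before NEAT1, had 31.1 and 31.4 CPM in ETV5OE, against 18.6 and 26.6 CPM in Control (log2 fold change 0.51, SE 0.21, edgeR adjusted p = 0.664). LTBP3 and SLC25A45 in the same stretch of chromosome 11 had log2 fold changes of 0.48 and 0.03 (adjusted p = 0.762 and 0.993). SLC25A45 lies within the span of FRMD8, so their reads may be shared. PRUNE2, the gene whose opposite strand carries PCA3, had 1393 and 1201 CPM in ETV5OE, against 851 and 1160 CPM in Control (log2 fold change 0.41, SE 0.18, edgeR adjusted p = 0.715). PCA3 is the lncRNA measured in urine as a prostate cancer marker, and its own level was not analysed here. ANTXR2, near PCAT4, stood at 2.64 and 2.60 CPM in ETV5OE, against 2.75 and 3.88 CPM in Control (adjusted p = 0.942).

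The transcripts of factors that work with MALAT1 and NEAT1 were also measured, but not the proteins. Of 28 paraspeckle proteins none was called, and 1 was higher and 0 lower at an unadjusted p under 0.05. Among all tested genes 3.63% were higher and 3.51% lower at that p. The median log2 fold change of the 28 was -0.03, where the median over all tested genes was 0.00. The RNA-binding protein CIRBP had a log2 fold change of 0.37 (edgeR adjusted p = 0.581) and the core paraspeckle protein NONO 0.24 (adjusted p = 0.814). Of 26 nuclear speckle and splicing factors none was called, 1 was higher and 0 lower at that p, and the median was 0.07. The serine- and arginine-rich factor SRSF2 had the smallest adjusted p (0.649). Of 17 factors that cut, modify or degrade such RNA ends none was called, 0 reached that p, and the median was 0.05, with the tRNA 3' end nuclease ELAC2 at a log2 fold change of 0.25 (adjusted p = 0.813).

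Other prostate cancer lncRNAs, a list chosen with earlier results known, gave 0 calls among 18 tested, of 20 in the table. At an unadjusted p under 0.05, 3 were lower and 0 higher, where 3.51% of all tested genes were lower at that p. Without overlap between groups 8 were lower and 1 higher, where 22.9% of all tested genes were lower and 15.1% higher. CRNDE, among the 3, is labelled protein-coding in these data, so it is not among the 1939 tested lncRNAs. CTBP1-AS, an antisense RNA known to act with the androgen receptor, stood at 18.8 and 10.9 CPM in ETV5OE, against 27.6 and 26.8 CPM in Control (log2 fold change -0.84, edgeR adjusted p = 0.449). PCAT7 stood at 2.10 and 2.35 CPM in ETV5OE, against 4.003 and 5.67 CPM in Control (log2 fold change -1.07, adjusted p = 0.537). The median of the list was -0.14, against -0.05 over all 1939 tested lncRNAs.

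Protein-coding genes that the androgen receptor activates, a list chosen likewise, gave 2 lower and 0 higher calls among 21 tested, where 0.148% of all tested genes were called lower. These 2 were the transcription factor MAF, at 5.19 and 7.18 CPM in ETV5OE, against 31.8 and 39.9 CPM in Control (edgeR adjusted p = 0.00731), and the cold-sensing channel TRPM8, at 4.47 and 2.92 CPM in ETV5OE, against 21.7 and 17.0 CPM in Control (adjusted p = 0.0202). Of the 21, 16 were lower at an unadjusted p under 0.05, where 3.51% of all tested genes were, and the median log2 fold change was -0.67. Without overlap between groups 17 were lower and 1 higher, where 22.9% of all tested genes were lower and 15.1% higher. With a library left out the median stayed between -0.73 and -0.60, while the calls numbered 6 and 4 without Control replicates 1 and 2, and 0 without either ETV5OE replicate. In those fits 0.412%, 0.378%, 0.00603% (without ETV5OE replicate 1) and 0.0484% (without ETV5OE replicate 2) of all tested genes were called lower. Of the members described above as androgen-linked, PCGEM1 had a negative log2 fold change of -2.35 and ARLNC1 stood at 0.10. DRAIC, which the receptor is known to repress, stood at 0.18, and none of them was called. PCGEM1 met the filter on low counts only through Control, and was at -1.17 without Control replicate 2.

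**Figure D4:**
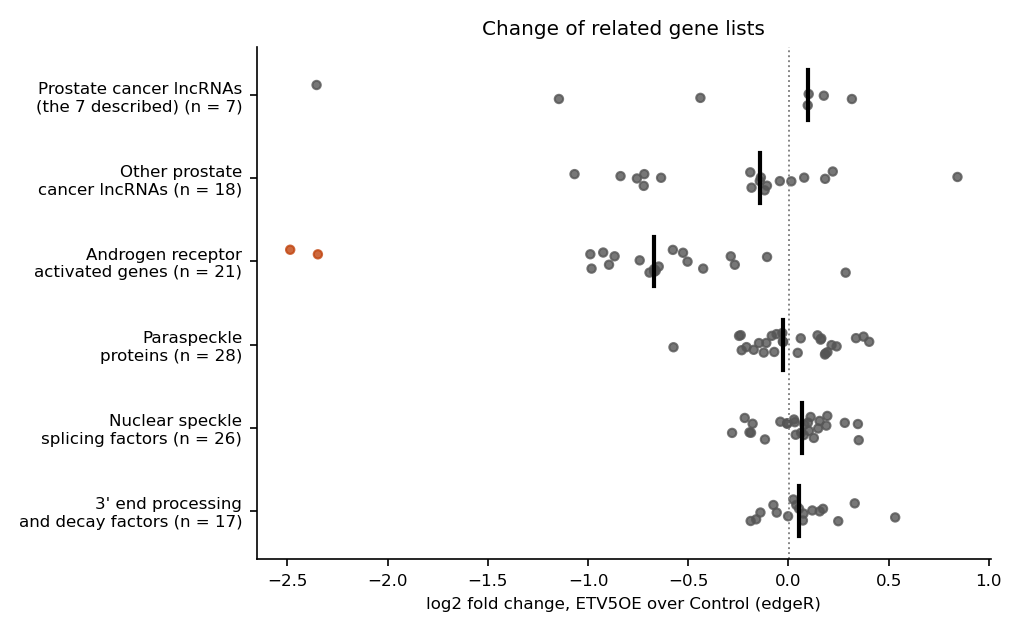
Log2 fold change of ETV5OE over Control (edgeR, horizontal axis) for each tested gene of 6 lists, with genes that passed the adjusted threshold in orange, the list median as a black bar and the median of all tested genes as a dotted line. The 7 lncRNAs spread from -2.35 to 0.32, and the androgen receptor activated genes have a median of -0.67.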

How the data were processed

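RNA from 2 ETV5OE and 2 Control libraries of LNCaP cells was sequenced as paired ends after a TruSeq library preparation, per the labels' protocols. The submitters' processing notes name Trimmomatic, HISAT2 and StringTie with build hg38, without versions or a strand setting. The deposited table holds raw read counts per gene and FPKM values, per the file headers. No listed gene has fewer than 1 count in a library, so genes below that are not analysed here. The authors deposited group means on a log2 scale, close to log2(FPKM + 1), with a signed fold score and unadjusted p-values, and no source used here names their test.

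Library totals were 22369062 and 24642392 counts in ETV5OE and 30227070 and 20639543 counts in Control. Counts were tested in edgeR 4.0.16 (R 4.3.3) with the default filter (minimum count 10), TMM scaling and a robust quasi-likelihood F test, and p-values were adjusted by Benjamini-Hochberg over all 16194 genes that passed; 1708 were untested. Each standard error is the fold change divided by the root of its F value. The procedure was tested on simulated data. Alternatives were DESeq2 1.42.0, limma 3.58.1 (voom, and log2 FPKM with pseudocounts of 1 and 0.1), other scalings and filters, a 1.5-fold threshold, the replicate block and each library left out.

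The members and lists were chosen with earlier results of these data known. Named genes are all members, ETV5, the neighbours, up to 3 of each other list with the smallest adjusted p, and the 3 tested genes nearest in profile to the member with the smallest p; some are left out, 1 neighbour because it is not reported here. LOC105375751, TALAM1 and MASCRNA are named because they overlap a member. Coordinates are from RefSeq GRCh38.p14, the same build as hg38. The lists hold symbols and older synonyms, and the mitochondrially encoded and small structural RNA lists gave 0 calls; without ETV5OE replicate 2 the mitochondrial list gave 1 lower call and a median log2 fold change of -0.80, against -0.36 with all libraries.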

Additional observations from a re-analysis of the deposited data

How the results depend on the processing

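No member passed the adjusted threshold in any of 18 alternative settings (120 member tests); PCGEM1 and PCAT6 were tested in 15 of these, being below the filter on FPKM or on 1 CPM in the other settings. The smallest adjusted p was 0.063, for PCGEM1 without Control replicate 1. The 5 alternative scalings changed no member's sign. NEAT1 had log2 fold changes of -0.21 with limma on log2(FPKM + 1) and on log2(FPKM + 0.1) (-0.206 and -0.208), against 0.10 from counts; its length differed between libraries as given above. With the replicate number as a block it was -0.0034. Same-numbered libraries did not deviate together (correlation 0.0187), and the block gave 55 calls, against 65. This block pairs libraries by replicate number only, and a block by the R ending of their names was not fitted. With 2 libraries a group, pairing by that ending would give the same correlation with its sign reversed. With each library left out, log2 fold changes ranged from -0.92 to 0.77 for NEAT1, -0.070 to 0.84 for MALAT1, -0.12 to 0.35 for ARLNC1 and -0.086 to 0.39 for DRAIC.

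Over all genes, 223 were called with DESeq2, 24 against a 1.5-fold change, 13 on log2(FPKM + 1) and 12 on log2(FPKM + 0.1) by limma, and 22 without robust estimation; the cause was not tested. Leaving out each library gave 4 to 259 calls: 259 and 162 without Control replicates 1 and 2, and 4 and 15 without ETV5OE replicates 1 and 2, the lone library being assumed to vary like the other group. ETV5 had log2 fold changes of 4.14 to 4.98 with each library left out, not passing without ETV5OE replicate 1 (adjusted p = 0.0551), and 4.02 with log2(FPKM + 0.1) (adjusted p = 0.0724). The counts of PCGEM1 and PCAT6, 9 to 67 and 10 to 30 a library, limit both.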
